A study of Mus musculus with 18 samples.

Results

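The genes described here were the integrins, laminins and collagens that mouse embryonic stem cells (ESCs) expressed before and during exit from pluripotency. They were the count table's protein-coding genes whose mouse symbol is Itga or Itgb with a number or letter, Lama, Lamb or Lamc with a number, or Col with the form number-a-number, and whose mean reached 1 CPM (the count scaled to a common total of counts on genes) in at least 1 of the 6 groups. Of 82 such genes among the 53801 genes of the table, 55 met the limit, namely 14 of 18 integrin α chains, 6 of 9 integrin β chains, 9 of 11 laminin chains and 26 of 44 collagen chains. Just inside the limit were Lamb3, with a highest group mean of 1.01 CPM, and Col14a1 with 1.04 CPM, and just outside were Col4a5 with 0.948 CPM and Col11a2 with 0.814 CPM. The 27 genes below the limit included Lama2, Lamc3, Itga2, Itgb2, Itgb6, Col3a1, Col6a1 and Col6a3.

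The cells were the parental line E14 wt (WT) and a line made from it, iEZR_CA, in which doxycycline induces a constitutively active, phosphomimetic form of Ezrin, the protein that ties the plasma membrane to the actin cortex. Each line was sampled at 3 time points, as naive ESCs in 2i+LIF medium (0 h), then 24 h (T24) or 48 h (T48) after transfer to N2B27, the medium without inhibitors or LIF in which pluripotency is lost. Both lines grew on gelatin, itself denatured collagen, were plated and harvested side by side, and gave 3 libraries of polyadenylated RNA per group, 18 in all. Doxycycline was given to iEZR_CA for about 16 h before exit and is not described for WT, so the transgene and the drug cannot be told apart, and iEZR_CA stands for a single engineered line. The comparisons asked how adhesion and matrix genes changed in each line during exit, how the lines differed at each time, and whether their changes differed.

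Laminins are trimers of an α, a β and a γ chain that polymerise into the sheet of the basement membrane, and type IV collagen forms the second network of that sheet. The trimers of β1 and γ1 with either α1 or α5 are the forms best known from the early embryo. Integrins are α and β heterodimers that bind these proteins outside the cell and link to actin through talin inside it. The β1 chain pairs with most α chains, among them α3 and α6, which bind laminin, and α5, which binds fibronectin, whereas αv also pairs with β3 and β5.

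The libraries held 10940752 to 33276622 counts on genes, of which the 55 genes took 0.239 to 0.349%. Ezr itself stood at 566 ± 12.4, 368 ± 9.10 and 481 ± 17.6 CPM (SD, n = 3) in WT ESCs, T24 and T48 and at 1188 ± 18.4, 993 ± 25.1 and 776 ± 7.45 CPM in iEZR_CA, above WT at each time. The 8 ES cell markers summed to 5852 to 6033 CPM in WT ESCs and had dropped to 1877 to 1970.2 CPM in WT T48 and 2515 to 2637 CPM in iEZR_CA T48. Markers of primitive or parietal endoderm, a lineage that makes much laminin and type IV collagen, summed to 13.2 to 14.9 CPM in WT ESCs and 37.2 to 40.2 CPM in iEZR_CA ESCs, a difference carried by Dab2 (2.18 ± 0.53 against 30.2 ± 0.852 CPM), while Gata4 was at 4.69 ± 0.284 against 0.831 ± 0.0924 CPM. Markers of fibroblasts, the usual makers of fibrillar collagen, summed to 46.95 to 49.1 CPM in WT T48, 34.7 to 37.4 CPM in iEZR_CA T48 and 11.9 to 16.1 CPM elsewhere, with Postn and Fap at or below 3 counts in every library. Trophectoderm markers summed to 36.7 to 39.2 CPM in iEZR_CA T24 against 7.18 to 7.75 CPM in WT T24. Ascl2 (25.1 ± 2.13 against 4.84 ± 0.631 CPM) and Gata3 (11.4 ± 0.974 against 1.92 ± 0.129 CPM) carried this difference. Cdx2, Elf5, Hand1 and Krt7 were below 1 CPM in both groups. What part these markers' cells had in the differences below was not tested, and in bulk RNA fewer cells expressing a gene and less RNA per cell cannot be told apart.

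The start regions of 4 genes are shown because their genes carry the main differences below. Itgb1 was higher in iEZR_CA at every time, and Lamb1 was lower at every time. Lama5 rose in WT and did not rise in iEZR_CA, and Col6a5 had the steepest rise of the well-counted genes in WT. Each is the sequence upstream of the start in RefSeq (GRCm38.p6), read 5′ to 3′ on the gene's strand, with matches on either strand to GGGCGG (the GC box), CCAAT (the box of that name), GGAATG (the M-CAT core that TEAD factors bind) or TATAAA in capitals. The windows lie at chr8:128685404-128685653 on the plus strand, chr12:31265043-31265233 on the plus strand (59 annotated exon bases left out), chr2:180225860-180226109 on the minus strand and chr9:105960644-105960893 on the minus strand.
Itgb1: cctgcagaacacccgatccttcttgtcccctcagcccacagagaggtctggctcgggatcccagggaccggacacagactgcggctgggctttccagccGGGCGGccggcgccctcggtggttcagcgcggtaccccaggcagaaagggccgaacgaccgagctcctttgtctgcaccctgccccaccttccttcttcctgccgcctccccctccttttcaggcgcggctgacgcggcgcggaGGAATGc
Lamb1: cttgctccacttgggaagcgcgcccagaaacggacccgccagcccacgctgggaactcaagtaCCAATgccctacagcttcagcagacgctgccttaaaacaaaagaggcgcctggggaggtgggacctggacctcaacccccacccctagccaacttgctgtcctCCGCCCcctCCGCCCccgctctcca
Lama5: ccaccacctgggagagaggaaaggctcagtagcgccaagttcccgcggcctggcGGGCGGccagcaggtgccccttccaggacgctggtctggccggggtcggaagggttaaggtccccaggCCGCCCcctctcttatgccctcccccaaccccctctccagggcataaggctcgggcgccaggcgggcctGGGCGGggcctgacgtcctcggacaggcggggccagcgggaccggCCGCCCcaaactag
Col6a5: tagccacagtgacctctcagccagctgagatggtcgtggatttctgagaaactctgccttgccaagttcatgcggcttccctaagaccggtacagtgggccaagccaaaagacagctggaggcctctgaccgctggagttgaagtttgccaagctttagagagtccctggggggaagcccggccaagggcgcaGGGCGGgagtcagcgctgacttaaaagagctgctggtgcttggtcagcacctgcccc

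Lama5 held 4 GC boxes, Lamb1 had 2 with a CCAAT, Itgb1 had 1 with a GGAATG, and Col6a5 had 1. Of the 55 genes, 37 had such a window of 250 bases before the start, and 23 of them (62.2%) held GGGCGG, against 61.5% of the windows of all tested genes and 32.7% of all 32851 windows. CCAAT was in 13 of the 37 (35.1%, against 40.4% of tested genes and 33.9% of all), GGAATG in 6 (16.2%, against 13.1 and 12.6%) and TATAAA in 2 (5.41%, against 8.12 and 12.4%). Col4a1 and Col4a2 start 21 bases apart on opposite strands, and their 5′ ends overlap over 22 bases that are exonic in both genes. That stretch (chr8:11312805-11312826, plus strand), also with its GC box in capitals, is shown since both genes hold it.
Col4a1 and Col4a2 start to start: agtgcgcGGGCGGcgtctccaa

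All 55 genes passed the filter on low counts and were tested among 18469 genes with edgeR's quasi-likelihood test, and a gene was called at a Benjamini-Hochberg adjusted p under 0.05. Positive log2 values mean higher in iEZR_CA or higher at the later time. The study describes the 3 libraries of a group as biological replicates, on which the labels give no detail, and the p-values measure the spread between these libraries.

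In WT, most of these genes changed during exit. At T24, 19 were higher and 20 lower than in ESCs, where 31.8% of all tested genes were called higher and 33.6% lower, and 24 had changed over 2-fold (20.8% of all genes). At T48, 34 were higher and 20 lower (37.1 and 37.4% of all genes), 42 of them over 2-fold (31.3%), with a median log2 change of 0.95 against 0.0058 over all genes. In iEZR_CA at T24, 21 were higher and 13 lower than in ESCs (27.1 and 28.9% of all genes), 16 over 2-fold (14.9%). With libraries scaled to the spike-ins, 21 were higher and 7 lower (24.6 and 11.1% of all genes). Without that scaling, 23 were higher and 19 lower at T48 (35.2 and 35.0%), 26 over 2-fold (26.1%). The median there was 0.26 against 0.0082 over all genes. By T48, 22 genes had risen in both lines and 16 had fallen in both. The share of all tested genes that did so was not counted, so these counts show nothing particular to these families. Lama5 and Col17a1 rose in WT and fell in iEZR_CA, but the fall of Lama5 was not called with spike-in scaling. Itga9 fell in WT and rose in iEZR_CA.

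The lines were then compared at each time. In ESCs 21 genes were higher and 15 lower in iEZR_CA than in WT (26.4 and 28.1% of all genes), 12 over 2-fold (11.9%). At T24, 28 were higher and 10 lower (30.8 and 30.1%), 18 over 2-fold (14.9%), with a median log2 difference of 0.30 against -0.002 over all genes. At T48, 21 were higher and 19 lower (31.0 and 30.1%), 16 over 2-fold (16.1%). Genes higher in iEZR_CA at all 3 times included Itgb1, Itgav, Itga1, Itga3, Itga7, Lamb2, Lamc1, Col5a1 and Col20a1. Lamb1, Col18a1, Col26a1 and Itgam were lower at all 3, and Lama1, Lama5, Itga4 and Col5a2 were higher in ESCs and at T24 and lower at T48. Some of these calls were lost when a library was left out. In ESCs the calls were lost for Itga7 without iEZR_CA ESC replicate 2 (adjusted p = 0.185), Itga4 without iEZR_CA ESC replicate 3 (0.119) and Itgam without WT ESC replicate 3 (0.137). At T24 they were lost for Itga4 without iEZR_CA T24 replicate 2 (0.201) and Col26a1 without WT T24 replicate 1 (0.16), and at T48 for Col5a2 in 4 of 6 such runs (0.067 to 0.147) and Itgam in 5 of 6 (0.069 to 0.288). The T48 calls of both were also lost in DESeq2 (0.165 and 0.214), under spike-in scaling (0.294 and 0.231) and without the filter on low counts (0.135 and 0.11). Spike-in scaling also lost the call of Itgb1 at T48 and those of Col18a1 at T24 and T48.

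The change itself differed between lines for many of them. By the interaction term, which is the change from ESC in iEZR_CA minus that in WT, 23 genes had a more positive change in iEZR_CA by T24 and 5 a more negative one (21.5 and 16.9% of all genes), 12 by over 2-fold (8.50%). By T48 there were 18 each way (25.7 and 20.0%), 24 by over 2-fold (13.3%). Scaled to the spike-ins, the T24 interaction called 11 and 3 genes (8.97 and 4.12% of all genes).

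**Figure D1:**
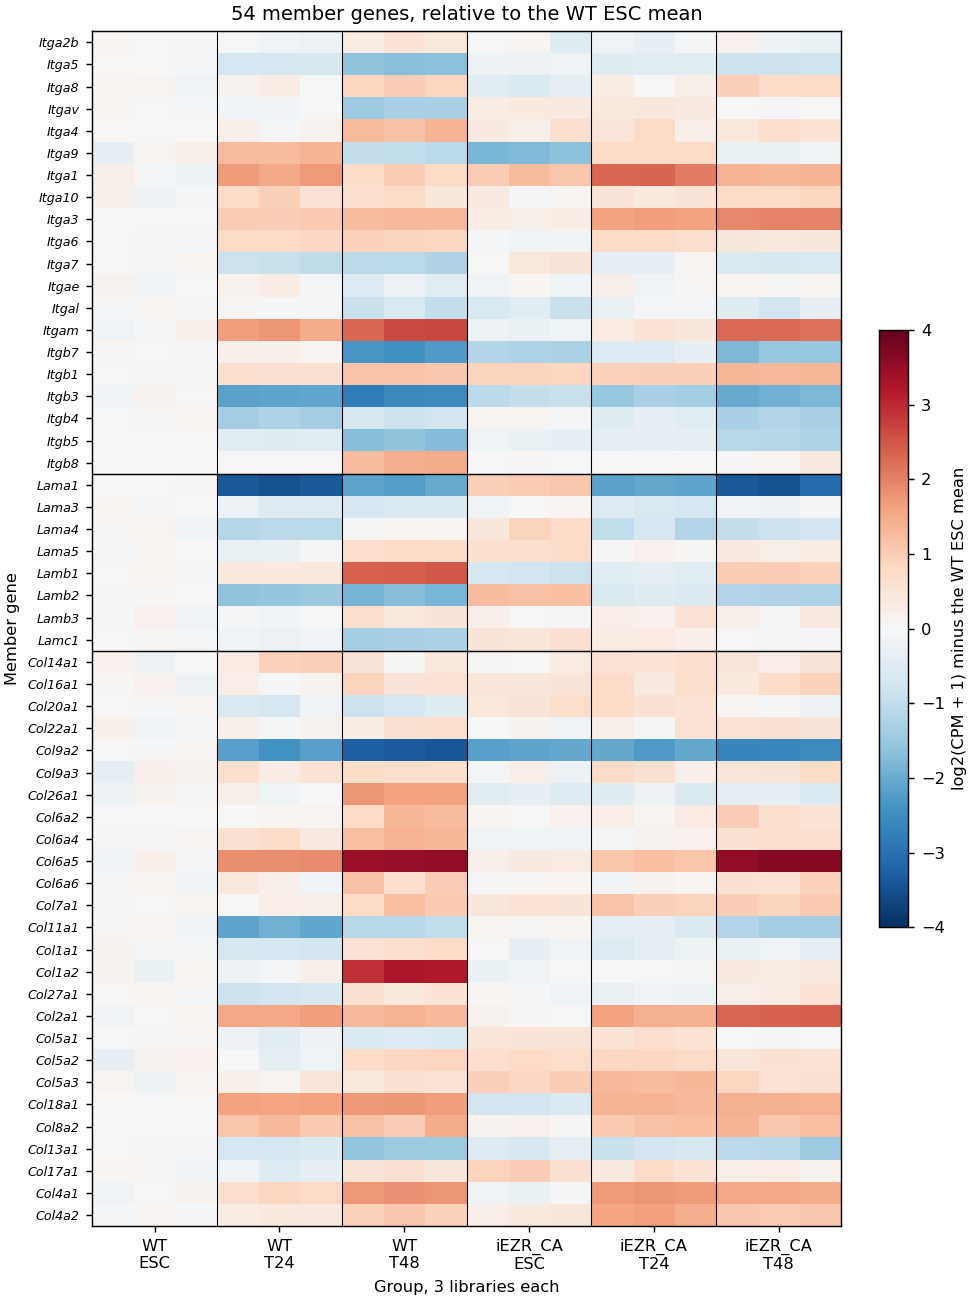
Heat map of 54 of the genes (one per line, grouped by class) in the 18 libraries (columns, 3 per group); colour is log2(CPM + 1) minus the gene's WT ESC mean, from blue (lower) to red (higher), with the scale ending at 4 in each direction. The 3 libraries of a group look alike, Col6a5 and Itgam turn red in both lines at T48, and Lama1 turns blue.

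From ESC to T48, Lamb1 rose and Lama1, Lamb2 and Lamc1 fell in both lines. Of the 9 laminin genes, 6 exceeded WT and 1 fell short in iEZR_CA ESCs (26.4 and 28.1% of all genes), 6 and 2 did so at T24 (30.8 and 30.1%), and 4 and 5 at T48 (31.0 and 30.1%). In WT from ESC to T48, 3 rose and 5 fell (37.1 and 37.4% of all genes), and Lama4 was not called. In iEZR_CA 1 rose and 6 fell (35.2 and 35.0%).

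Lama1 (chromosome 17, 67697259 to 67822647, plus strand), the α1 chain of early embryonic laminin, stood at 83.03, 84.8 and 86.8 CPM in WT ESCs, 7.36, 6.69 and 7.44 at T24 and 18.9, 17.8 and 20.3 at T48. In iEZR_CA it stood at 166, 172 and 179.7 CPM in ESCs, 18.3, 19.9 and 18.7 at T24 and 7.28, 6.73 and 9.19 at T48. It was high in ESCs of both lines and low afterwards, with iEZR_CA above WT in ESCs and at T24 and below it at T48, and no line overlapped the other at any time. The line difference was 2.03-fold in ESCs (log2 fold change 1.02, SE 0.04, adjusted p = 3.48e-33) and 2.66-fold at T24 (log2 fold change 1.41, SE 0.08, adjusted p = 5.12e-25). At T48 iEZR_CA was 2.54-fold lower (log2 fold change -1.35, SE 0.078, adjusted p = 2.23e-24). The T48 libraries stood above those of T24 in WT and below them in iEZR_CA, and the change from ESC to T48 differed by -2.37 on the log2 scale (SE 0.087, adjusted p = 2.66e-34).

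Lamb1 (chromosome 12, 31265234 to 31329644, plus strand), the β1 chain that joins α1 or α5, was counted at 40.6, 44.1 and 39.9 CPM in WT ESCs, 54.5, 54.6 and 56.03 at T24 and 216, 223 and 236 at T48. In iEZR_CA it was at 25.1, 23.9 and 22.6 CPM in ESCs, 31.01, 32.04 and 30.3 at T24 and 84.3, 83.1 and 78.8 at T48. It rose in both lines, mostly after T24, and every iEZR_CA library lay below every WT library of its time. From ESC to T48 the rise was 5.41-fold in WT (log2 fold change 2.43, SE 0.04, adjusted p = 5.99e-56) and 3.43-fold in iEZR_CA (log2 fold change 1.78, SE 0.048, adjusted p = 4.58e-43). iEZR_CA was 1.74-fold lower in ESCs (log2 fold change -0.80, SE 0.052, adjusted p = 1.78e-21) and 2.74-fold lower at T48 (log2 fold change -1.45, SE 0.037, adjusted p = 9.74e-44).

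Lamb2, the alternative β chain, ran the other way. It measured 65.7, 71.8 and 69.7 CPM in WT ESCs, 21.8, 23.2 and 24.3 at T24 and 18.4, 20.4 and 18.6 at T48, and 164, 158 and 159.9 CPM in iEZR_CA ESCs, 45.6, 48.9 and 45.7 at T24 and 30.2, 29.2 and 28.9 at T48. It fell in both lines and was higher in iEZR_CA at each time without overlap, by 2.31-fold in ESCs (log2 fold change 1.21, SE 0.038, adjusted p = 3.64e-38) and 1.56-fold at T48 (log2 fold change 0.65, SE 0.057, adjusted p = 6.07e-16). Per kb of exon, which allows chains to be compared, Lamb1 made up 26.8 ± 0.79% of β chain expression in WT ESCs, 59.1 ± 0.957% at T24 and 87.3 ± 0.783% at T48 (SD, n = 3). In iEZR_CA it made up 8.34 ± 0.343, 28.7 ± 0.415 and 62.7 ± 0.657%, so the β2 chain led in iEZR_CA until T24 and β1 led at T48. Lamb3, the β3 chain of epithelia, reached no more than 1.003 ± 0.204 CPM in any group.

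Lamc1 (chromosome 1, 153218922 to 153332786, minus strand), the γ chain shared by most laminins, was the most highly expressed of the 55 genes per kb in ESCs. WT libraries gave 795, 831 and 776 CPM in ESCs, 707, 684 and 741 at T24 and 308, 323 and 334 at T48, and iEZR_CA libraries gave 1136, 1131 and 1214, then 975, 1013 and 930.4, then 797, 756 and 780.5. All iEZR_CA libraries were above those of WT at the same time, and at T48 they were near the level of WT ESCs. The fall from ESC to T48 was 2.49-fold in WT (log2 fold change -1.32, SE 0.042, adjusted p = 8.91e-16) and 1.49-fold in iEZR_CA (log2 fold change -0.58, SE 0.04, adjusted p = 2.44e-10), and the lines differed by 2.42-fold at T48 (log2 fold change 1.27, SE 0.042, adjusted p = 3.31e-15).

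Lama5, the α5 chain, was the main α chain in all groups per kb. It had 226, 251 and 242 CPM in WT ESCs, 195, 198 and 234 at T24 and 388, 418 and 412 at T48, and 372, 376 and 399, then 249, 270.4 and 245, then 307, 282 and 294 CPM in iEZR_CA. The lines changed places, with iEZR_CA higher in ESCs (log2 fold change 0.67, SE 0.067, adjusted p = 1.34e-06) and lower at T48 (log2 fold change -0.46, SE 0.066, adjusted p = 3.78e-05). WT rose 1.69-fold from ESC to T48 (log2 fold change 0.76, SE 0.067, adjusted p = 1.8e-07). iEZR_CA fell 1.3-fold (log2 fold change -0.38, SE 0.067, adjusted p = 0.00019), a call that was lost when libraries were scaled to the spike-ins (log2 fold change -0.13, adjusted p = 0.376), whereas the difference between the changes was kept (-1.13, SE 0.094, adjusted p = 2.73e-07 in edgeR). Lama1 accounted for 28.6% of α chain expression per kb in WT ESCs and 5.14% at T48, and for 34.03 and 2.93% in iEZR_CA.

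The minor α chains were low. Lama3, the α3 chain of epithelia, was at 7.49, 6.72 and 7.05, then 5.88, 4.62 and 4.66, then 4.03, 4.43 and 4.38 CPM in WT and at 6.33, 7.17 and 7.7, then 4.7, 4.26 and 3.98, then 6.44, 6.07 and 6.66 CPM in iEZR_CA. The ESC libraries of the lines overlapped, and at T48 iEZR_CA was higher (log2 fold change 0.58, SE 0.12, adjusted p = 2.8e-05). Lama4, an α chain of vessels and mesenchyme, averaged 2.26 ± 0.327 CPM in WT ESCs and 2.45 ± 0.111 at T48 but went from 4.32 ± 0.816 to 0.79 ± 0.12 CPM in iEZR_CA, where it fell 5.58-fold (log2 fold change -2.48, SE 0.21, adjusted p = 5.76e-17).

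**Figure D2:**
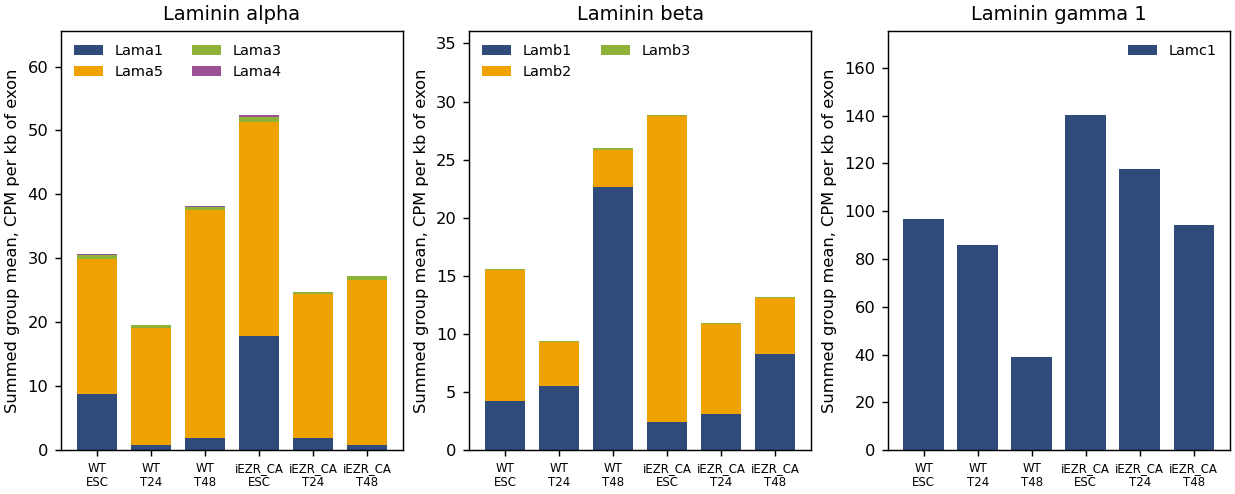
Stacked bars of the group mean levels of laminin α and β chains and of Lamc1 in CPM per kb of exon, for the 3 times in each line. Lamc1 falls in both lines and is higher in iEZR_CA, Lamb1 grows to most of the β chains by T48, and Lama1 is a larger part of the α chains in ESCs than later.

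Type IV collagen, the network collagen of basement membranes, rose in both lines, and iEZR_CA was above WT at T24. Col4a1 (chromosome 8, 11198423 to 11312826, minus strand) was at 10.9, 12.2 and 13.7 CPM in WT ESCs, 19.99, 22.96 and 21.6 at T24 and 42.7, 46.1 and 43.6 at T48. In iEZR_CA it was at 10.9, 10.1 and 11.6 CPM in ESCs, 42.02, 43.6 and 42.3 at T24 and 37.5, 37.8 and 35.8 at T48. WT climbed at each step, while iEZR_CA had reached its highest level at T24, where all its libraries exceeded those of WT by 2.001-fold on average (log2 fold change 1.001, SE 0.059, adjusted p = 3.77e-24). In ESCs the lines' libraries overlapped, and the called difference there (log2 fold change -0.20, SE 0.083, adjusted p = 0.0329) was lost in DESeq2 (adjusted p = 0.105), under spike-in scaling (0.589) and without WT ESC replicate 3 (0.29) or iEZR_CA ESC replicate 1 (0.0569) or 2 (0.215). At T48 iEZR_CA was lower by 1.18-fold (log2 fold change -0.24, SE 0.053, adjusted p = 7.99e-05), which the spike-in scaling also did not call (adjusted p = 0.246).

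Col4a2 (chromosome 8, 11312805 to 11449287, plus strand), its neighbour on the opposite strand and partner in the α1α1α2 trimer, was at 5.77, 6.38 and 5.82 CPM in WT ESCs, 7.58, 8.14 and 8.04 at T24 and 12.3, 13.7 and 12.1 at T48. iEZR_CA had 7.02, 8.1 and 8.63 CPM in ESCs, 20.1, 20.9 and 18.1 at T24 and 13.7, 13.1 and 13.7 at T48. As for Col4a1, the lines lay furthest apart at T24, with iEZR_CA 2.51-fold higher (log2 fold change 1.33, SE 0.083, adjusted p = 1.19e-22), and they overlapped at T48 (log2 fold change 0.11, SE 0.081, adjusted p = 0.266). The increase from ESC to T24 was larger in iEZR_CA by 1.20 on the log2 scale for Col4a1 (SE 0.10, adjusted p = 3.44e-16) and by 0.94 for Col4a2 (SE 0.13, adjusted p = 2.77e-08). Both genes and Itgb1 lie on chromosome 8, whose tested genes had median line differences of 0.18, 0.21 and 0.18 in ESCs, at T24 and at T48. Per kb, Col4a1 exceeded Col4a2 by 1.82 ± 0.235-fold in WT ESCs and 3.08 ± 0.094-fold at T48, and by 1.22 ± 0.136 and 2.43 ± 0.126-fold in iEZR_CA.

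**Figure D3:**
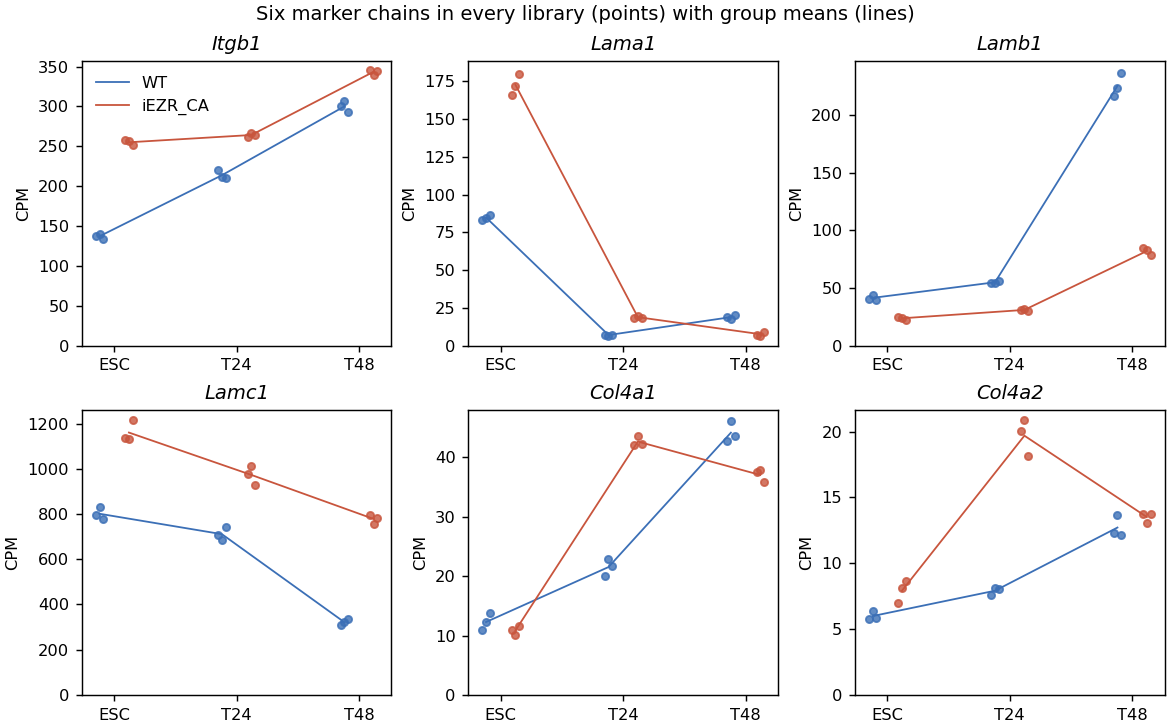
CPM in each library (points) and group means (lines) of Itgb1, Lama1, Lamb1, Lamc1, Col4a1 and Col4a2 at ESC, T24 and T48 in WT and iEZR_CA. Itgb1 and Lamc1 lie higher and Lamb1 lower in iEZR_CA at every time, Lama1 crosses between T24 and T48, and the type IV chains part mainly at T24.

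Col18a1, a basement membrane collagen that carries heparan sulphate and yields endostatin, made up most collagen expression per kb. It measured 246, 241 and 249 CPM in WT ESCs, 743, 742 and 758 at T24 and 811, 832 and 789.8 at T48, and 143, 146 and 162 CPM in iEZR_CA ESCs, 633, 629 and 610.1 at T24 and 662, 659.7 and 648 at T48. It rose in both lines within 24 h, and iEZR_CA lay below WT at each time without overlap. The difference was 1.63-fold in ESCs (log2 fold change -0.71, SE 0.03, adjusted p = 1.76e-29) and 1.23-fold at T48 (log2 fold change -0.30, SE 0.028, adjusted p = 5.66e-15), the latter not called under spike-in scaling (adjusted p = 0.0999), nor was the difference at T24 (0.236). Its share of collagen expression per kb went from 57.8 to 84.8% in WT and from 56.8 to 81.6% in iEZR_CA.

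The other collagens stood far lower. In WT 21 of all 26 collagen genes were higher at T48 than in ESCs and 5 lower (37.1 and 37.4% of all genes), and in iEZR_CA 15 were higher and 6 lower (35.2 and 35.0%). Between the lines, 9 were higher and 5 lower in iEZR_CA ESCs (26.4 and 28.1% of all genes), 13 and 4 at T24 (30.8 and 30.1%), and 5 and 8 at T48 (31.0 and 30.1%).

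The class of beaded-filament and other collagens, some of which build microfibrils or anchoring fibrils near basement membranes, counted 6 genes. Of these, 6 were higher at T48 than in ESCs in WT (37.1% of all genes). In iEZR_CA 5 were higher (35.2%), and Col26a1 was not called. Col6a5, a type VI chain, was at 0.485, 0.812 and 0.492 CPM in WT ESCs, 4.71, 4.81 and 4.88 at T24 and 16.1, 17.1 and 17.4 at T48, and at 0.845, 1.05 and 1.004, then 2.45, 2.69 and 2.46, then 17.6, 18.7 and 18.7 CPM in iEZR_CA. It rose 27.2-fold in WT (log2 fold change 4.76, SE 0.14, adjusted p = 1.21e-40) and 18.8-fold in iEZR_CA (log2 fold change 4.23, SE 0.13, adjusted p = 3.92e-39), with iEZR_CA lower at T24 (log2 fold change -0.90, SE 0.14, adjusted p = 3.83e-08) and no called difference at T48 (log2 fold change 0.12, SE 0.076, adjusted p = 0.161). Its neighbours on chromosome 9, Col6a4 (136.1 kb away) and Col6a6 (132.5 kb away), also rose by T48 in WT, by 2.68 and 3.70 on the log2 scale. Col26a1, a small secreted collagen, went from 1.56 ± 0.292 to 7.06 ± 0.471 CPM in WT but stayed at 0.913 ± 0.144 CPM in iEZR_CA, 7.59-fold lower at T48 (log2 fold change -2.92, SE 0.18, adjusted p = 3.16e-23).

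Among the 8 fibrillar collagens, 6 rose and 2 fell by T48 in WT (37.1 and 37.4% of all genes). Col2a1, the cartilage collagen also seen in early embryos, was at 2.16, 2.36 and 2.62, then 8.87, 8.91 and 9.84, then 7.31, 7.78 and 7.23 CPM in WT and at 2.69, 2.46 and 2.41, then 9.27, 8.001 and 8.1, then 15.6, 16.5 and 16.5 CPM in iEZR_CA. It rose in both lines by T24, and at T48 the iEZR_CA libraries stood above all others and were 2.19-fold above WT (log2 fold change 1.13, SE 0.088, adjusted p = 2.07e-18). Col11a1, which joins types II and V in thin fibrils, fell by T24 in WT from 10.1, 10.5 and 8.98 to 1.54, 1.88 and 1.58 CPM and was at 4.03, 3.98 and 4.53 CPM at T48. In iEZR_CA it was at 10.7, 10.2 and 10.6, then 7.53, 7.2 and 6.31, then 3.84, 3.35 and 3.33 CPM, so that the lines differed at T24 (log2 fold change 2.07, SE 0.14, adjusted p = 1.31e-20) and their libraries overlapped in ESCs.

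The type V minor chains were higher in iEZR_CA at first. Col5a3 was at 1.46, 0.959 and 1.39, then 1.66, 1.44 and 2.18, then 1.99, 2.44 and 2.34 CPM in WT and at 3.38, 2.98 and 3.61, then 4.5, 4.4 and 4.66, then 3.08, 2.39 and 2.41 CPM in iEZR_CA. Its difference was 2.63-fold in ESCs (log2 fold change 1.39, SE 0.19, adjusted p = 3.95e-09) and was not called at T48 (log2 fold change 0.25, SE 0.18, adjusted p = 0.218). Col5a2 was at 1.99, 3.1 and 3.2, then 2.65, 1.88 and 2.33, then 5.24, 5.61 and 5.7 CPM in WT and at 4.91, 5.52 and 5.09, then 5.66, 5.67 and 5.37, then 4.2, 4.71 and 4.59 CPM in iEZR_CA. The WT libraries were highest at T48 and the iEZR_CA libraries lowest, and its change from ESC to T48 was lower in iEZR_CA (interaction -1.17, SE 0.19, adjusted p = 5.36e-07). Col1a2, a type I chain of connective tissue, was in WT T48 at 9.54 ± 1.23 CPM against 0.505 ± 0.0234 in iEZR_CA T48 (log2 fold change -4.21, SE 0.23, adjusted p = 6.87e-20). In that comparison the fibroblast markers went both ways, 2 higher and 3 lower in iEZR_CA (31.0 and 30.1% of all genes). Dcn was at 10.8 ± 0.63 CPM in WT against 15.9 ± 1.42 in iEZR_CA, and Mmp2 at 23.9 ± 0.803 against 10.3 ± 0.273. The part of these markers was not tested.

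Among the FACIT collagens, which sit on the surface of fibrils, Col9a2 changed most in WT. It was at 44.9, 43.5 and 48.1 CPM in WT ESCs, 9.3, 7.75 and 9.39 at T24 and 3.8, 3.62 and 3.36 at T48, and at 9.24, 9.75 and 10.2, then 10.2, 8.66 and 10.3, then 6.4, 6.69 and 6.95 CPM in iEZR_CA. WT ESCs were high and the remaining groups low, so that WT fell 12.6-fold by T48 (log2 fold change -3.66, SE 0.086, adjusted p = 6.51e-47) whereas iEZR_CA fell 1.46-fold (log2 fold change -0.54, SE 0.10, adjusted p = 1.48e-06, but 0.11 under spike-in scaling). In ESCs iEZR_CA was 4.69-fold lower (log2 fold change -2.23, SE 0.072, adjusted p = 7.89e-38). Of the transmembrane collagens, Col17a1, a hemidesmosome protein, averaged 0.833 ± 0.119 CPM in WT ESCs and 1.64 ± 0.163 at T48 but 2.28 ± 0.434 and 1.14 ± 0.0923 in iEZR_CA. Col14a1, Col22a1, Col6a6, Col8a2 and Col9a3 were not called between the lines at any time, and their highest group means ran from 1.06 to 3.06 CPM.

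Among the integrin β chains, Itgb1 (chromosome 8, 128685654 to 128733200, plus strand) took 49.5% of the summed CPM per kb in WT ESCs and 88.5% at T48, and 71.1 and 86.3% in iEZR_CA. It was counted at 138, 140.4 and 133 CPM in WT ESCs, 219.9, 212 and 210.0 at T24 and 301, 306 and 293 at T48. In iEZR_CA it was at 257, 257 and 251 CPM in ESCs, 261, 267 and 264 at T24 and 346, 340.0 and 344 at T48. Every iEZR_CA library was above every WT library of its time, with the widest gap in ESCs, and iEZR_CA ESCs were already above WT T24. The difference was 1.86-fold in ESCs (log2 fold change 0.89, SE 0.029, adjusted p = 4.69e-38), 1.23-fold at T24 (log2 fold change 0.30, SE 0.028, adjusted p = 2.27e-15) and 1.15-fold at T48 (log2 fold change 0.20, SE 0.027, adjusted p = 2.51e-09). The last was close to the chromosome 8 median of 0.18 and was not called under spike-in scaling (log2 fold change 0.25, adjusted p = 0.102). From ESC to T48 Itgb1 rose 2.18-fold in WT (log2 fold change 1.13, SE 0.028, adjusted p = 3.98e-45) and 1.35-fold in iEZR_CA (log2 fold change 0.43, SE 0.027, adjusted p = 8.74e-23).

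The αv partners Itgb3 and Itgb5 fell by T48. Itgb3, of the vitronectin receptor, was at 23.2, 28.01 and 25.7, then 4.99, 5.1 and 5.26, then 2.84, 3.44 and 3.59 CPM in WT and at 11.8, 12.7 and 13.3, then 8.3, 9.86 and 9.09, then 5.56, 6.07 and 6.66 CPM in iEZR_CA. It fell in both lines, from a lower start and to a higher end in iEZR_CA, by 7.92-fold in WT (log2 fold change -2.99, SE 0.10, adjusted p = 6.21e-38) and 2.08-fold in iEZR_CA (log2 fold change -1.06, SE 0.10, adjusted p = 4e-15). Itgb5, the other vitronectin-binding β chain, went from 82.8 ± 1.54 to 25.2 ± 1.27 CPM in WT and from 69.3 ± 3.65 to 36.4 ± 1.81 in iEZR_CA, where it was higher at T48 (log2 fold change 0.55, SE 0.052, adjusted p = 1.22e-14).

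Itgb4, which with α6 anchors hemidesmosomes to laminin, was at 13.3, 12.6 and 13.9, then 4.41, 5.06 and 4.51, then 8.09, 6.79 and 7.58 CPM in WT and at 14.5, 14.4 and 12.6, then 9.27, 10.4 and 9.49, then 4.76, 5.37 and 4.77 CPM in iEZR_CA. The lines overlapped in ESCs, iEZR_CA was higher at T24 (log2 fold change 1.08, SE 0.11, adjusted p = 4.56e-14) and lower at T48 (log2 fold change -0.61, SE 0.11, adjusted p = 1.55e-06). Itgb7, which pairs with α4 or αE in lymphocytes, was at 13.7, 13.4 and 12.96, then 15.4, 15.5 and 14.05, then 1.85, 1.63 and 1.95 CPM in WT and at 5.33, 5.04 and 4.95, then 9.07, 9.13 and 10.5, then 3.16, 4.01 and 4.02 CPM in iEZR_CA. It was lower in iEZR_CA ESCs (log2 fold change -1.38, SE 0.10, adjusted p = 1.54e-19) and higher at T48 (log2 fold change 1.001, SE 0.16, adjusted p = 8.72e-08), with a fall from ESC to T48 of 7.19-fold in WT and 1.38-fold in iEZR_CA (adjusted p = 0.00101, but 0.352 under spike-in scaling). Itgb8, which activates TGF-β with αv, had 101 counts over the 3 WT T48 libraries, 8 over those of iEZR_CA T48 and no more than 1 in any other group.

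Of the laminin-binding α chains, Itga3 and Itga6 rose in both lines. Itga6 averaged 176 ± 6.79, 308 ± 5.41 and 328 ± 5.24 CPM in WT and 164 ± 3.55, 297 ± 6.15 and 239.7 ± 2.6 in iEZR_CA, which was lower at T48 (log2 fold change -0.45, SE 0.028, adjusted p = 5.34e-23). Itga3 averaged 78.1 ± 1.37, 159.5 ± 4.38 and 191 ± 3.75 CPM in WT and 95.01 ± 2.21, 242 ± 6.12 and 308 ± 6.37 in iEZR_CA, which was higher at T48 (log2 fold change 0.69, SE 0.029, adjusted p = 1.34e-31). The third, Itga7 of muscle, fell from 1.91 ± 0.161 CPM in WT ESCs to 0.347 ± 0.0676 at T48. Together Itga3 and Itga6 went from 47.3 to 82.1% of α chain expression per kb in WT and from 49.7 to 74.8% in iEZR_CA.

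The main α chains that bind the RGD motif of fibronectin and vitronectin fell by T48, less so in iEZR_CA. Itgav was at 100.2, 95.3 and 88.6 CPM in WT ESCs, 87.6, 87.3 and 94.9 at T24 and 33.9, 37.8 and 37.9 at T48, and at 116, 123 and 121, then 125, 129 and 121, then 93.5, 92.1 and 94.98 CPM in iEZR_CA. Its loss came after T24 in WT, and at T48 all iEZR_CA libraries were at about the level of WT ESCs, 2.58-fold above WT T48 (log2 fold change 1.37, SE 0.045, adjusted p = 2.5e-35). Itga5, the fibronectin receptor chain, went from 123 ± 2.81 to 38.97 ± 0.72 CPM in WT (log2 fold change -1.65, SE 0.038, adjusted p = 2.5e-47) and from 107 ± 1.48 to 69.3 ± 0.735 in iEZR_CA (log2 fold change -0.62, SE 0.036, adjusted p = 6.76e-25). The fall of Itgav in iEZR_CA (log2 fold change -0.36, SE 0.039, adjusted p = 1.67e-12) was not called under spike-in scaling (0.488). The change differed for Itgav by 1.02 (SE 0.06, adjusted p = 1.77e-22) and for Itga5 by 1.03 (SE 0.053, adjusted p = 9.88e-27) on the log2 scale. Itga5 and Itgav together held 48.05% of α chain expression per kb in WT ESCs and 13.3% at T48, and 46.9 and 21.1% in iEZR_CA. Itga8, whose ligand is nephronectin, and Itga2b, the platelet chain, stayed at or below 2.58 CPM on average.

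The remaining α chains were low. Itga9, which binds tenascin C, was at 4.31, 6.2 and 6.85, then 15.2, 15.02 and 16.3, then 2.47, 2.35 and 2.19 CPM in WT and at 0.897, 0.967 and 1.14, then 10.4, 10.1 and 10.4, then 4.56, 4.41 and 5.17 CPM in iEZR_CA. It peaked at T24 in both lines, and iEZR_CA was 5.94-fold lower in ESCs (log2 fold change -2.57, SE 0.18, adjusted p = 2.34e-20) and 1.99-fold higher at T48 (log2 fold change 0.99, SE 0.15, adjusted p = 3.75e-08). Itga4, its relative that binds fibronectin and VCAM1, rose from 0.642 ± 0.0249 to 2.97 ± 0.264 CPM in WT and was at 1.41 ± 0.229 CPM in iEZR_CA T48 (log2 fold change -1.08, SE 0.20, adjusted p = 3.43e-06).

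Itga1, a collagen receptor chain that prefers type IV collagen, was at 1.67, 1.18 and 0.984, then 6.44, 5.49 and 6.31, then 2.77, 3.62 and 2.97 CPM in WT and at 3.54, 4.47 and 3.88, then 10.1, 10.3 and 8.37, then 4.96, 4.67 and 4.82 CPM in iEZR_CA. It peaked at T24 in both lines and was higher in iEZR_CA at each time without overlap, by 3.21-fold in ESCs (log2 fold change 1.68, SE 0.18, adjusted p = 2.09e-12). Itga10, the other collagen receptor chain here, averaged at most 2.53 ± 0.108 CPM, and 33.5% of its exon bases are shared with another annotated gene on the same strand, so its counts are uncertain. The same holds for Itgam, a chain of myeloid cells, with 68.7% of its exon bases shared with Gm49368. Itgam read 0.108, 0.148 and 0.41, then 2.9, 3.13 and 2.4, then 4.99, 6.51 and 6.72 CPM in WT and 0.0528, 0 and 0.0669, then 0.515, 0.764 and 0.671, then 4.88, 4.89 and 4.65 CPM in iEZR_CA, low in ESCs and high at T48 in both. The lymphocyte chains Itgal and Itgae stayed at or below 6.66 CPM on average, and Itgae was higher in iEZR_CA at T48 (log2 fold change 0.71, SE 0.18, adjusted p = 0.000344).

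**Figure D4:**
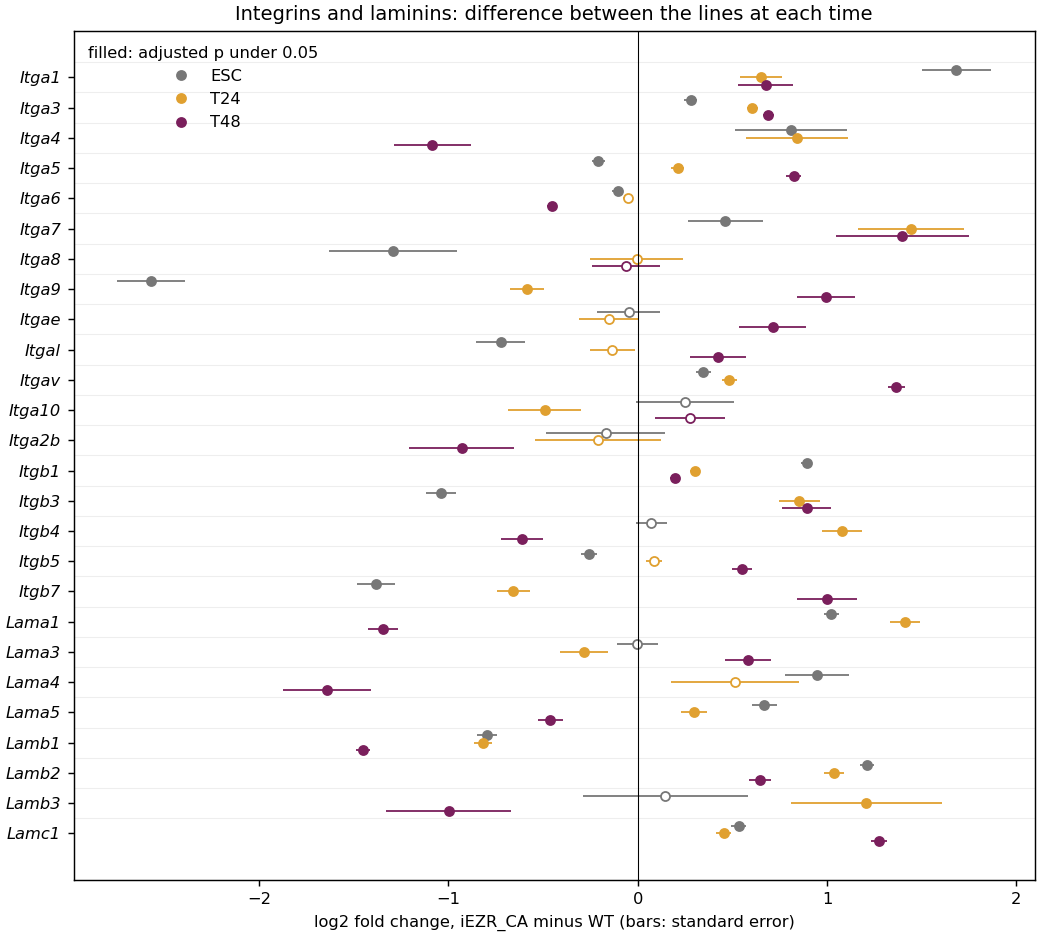
Log2 fold change of iEZR_CA over WT (points) with its SE (bars) in ESCs, at T24 and at T48 for 26 integrin and laminin genes, filled where the adjusted p was under 0.05. Genes at 3 counts or fewer in every library of any group are left out of the whole plot. Itgb1, Lamb2 and Lamc1 lie right of 0 at all 3 times and Lamb1 lies left, while Lama1 and Lama5 cross to the left at T48 and Itga9 crosses to the right.

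Per kb, the order of the highest genes changed with exit. In WT ESCs Lamc1 (96.8 ± 3.38 CPM per kb) was followed by Col18a1 (34.9 ± 0.571) and Itgb1 (33.6 ± 0.873), and Col18a1 and Itgb1 did not differ beyond their spread. At T48 WT had Col18a1 first (116 ± 3.03), then Itgb1 (73.5 ± 1.65) and Lamc1 (38.9 ± 1.59). iEZR_CA ESCs had Lamc1 (140.2 ± 5.63), Itgb1 (62.5 ± 0.806) and Lama5 (33.6 ± 1.3), and at T48 Lamc1 (94.05 ± 2.51) and Col18a1 (93.5 ± 1.06), which did not differ beyond their spread, stood above Itgb1 (84.2 ± 0.788).

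**Figure D5:**
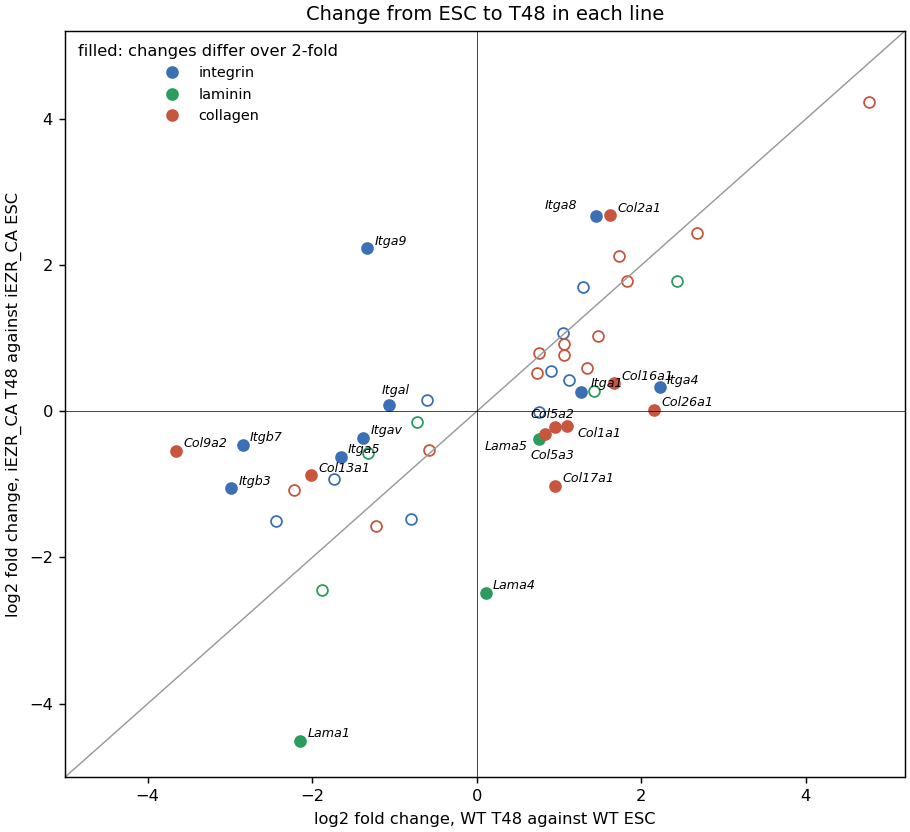
Log2 change from ESC to T48 in WT (x axis) against iEZR_CA (y axis) for 48 genes, with the diagonal of equal change and filled points where the changes differed over 2-fold with an adjusted p under 0.05; 6 genes at 3 counts or fewer in every library of a group are left out. Most genes lie in the quadrants of equal sign, Itga9 lies at the upper left, and Lama5 and Col17a1 lie at the lower right.

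Other genes of the pathway were read from lists. Of the basement membrane and matrix ligands outside these families, 4 of 12 tested rose and 8 fell by T48 in WT (37.1 and 37.4% of all genes), and 4 rose and 5 fell in iEZR_CA (35.2 and 35.0%). Nid1, nidogen, which bridges laminin γ1 and type IV collagen, fell from 480.3 ± 24.5 to 10.3 ± 0.635 CPM in WT and from 572 ± 6.4 to 35.2 ± 1.56 in iEZR_CA (line difference at T48: log2 fold change 1.79, SE 0.066, adjusted p = 2.3e-23). Fn1, fibronectin, the ligand of α5β1, fell from 1238 ± 34.4 to 318 ± 8.45 CPM in WT and from 1589 ± 46.1 to 710.3 ± 35.6 in iEZR_CA (line difference at T48: log2 fold change 1.16, SE 0.058, adjusted p = 4.89e-10). Both ligands were higher in iEZR_CA at T48, as Lamc1, Itgav and Itga5 were, whereas Lamb1, Lama1 and Lama5 were lower. Of the 12 tested ligands, 7 were higher and 5 lower in iEZR_CA at T48 (31.0 and 30.1% of all genes). Frem2 was among the lower, at 34.6 ± 5.43 CPM in WT T48 and 11.7 ± 0.777 in iEZR_CA T48.

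Of 26 tested genes that fold, modify and process collagen, 4 were higher and 17 lower in iEZR_CA ESCs (26.4 and 28.1% of all genes). At T24 8 exceeded WT and 5 fell short (30.8 and 30.1%), and at T48 8 and 10 (31.0 and 30.1%). Serpinh1, the collagen chaperone HSP47, was at 51.7 ± 1.86, 22.6 ± 2.71 and 111 ± 2.55 CPM in WT ESCs, T24 and T48 and at 24.6 ± 2.26, 26.3 ± 0.573 and 29.3 ± 3.45 in iEZR_CA, lower at T48 (log2 fold change -1.90, SE 0.062, adjusted p = 5.1e-21). Of 23 tested genes of the integrin adhesion complex, 10 exceeded WT and 4 fell short in iEZR_CA ESCs, with 10 and 9 at T24 and 10 and 7 at T48, against the same all-gene shares. Tln1, talin, which activates integrins, was at 329.8 ± 6.33 CPM in WT ESCs and 515 ± 21.03 in iEZR_CA ESCs (log2 fold change 0.64, SE 0.049, adjusted p = 1.43e-08), a difference that Itgb1 also showed. Zyx, zyxin, found at tensed adhesions, reached 148 ± 4.67 CPM at T48 in WT but 34.1 ± 1.38 in iEZR_CA (log2 fold change -2.11, SE 0.045, adjusted p = 2.21e-48).

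Of 9 tested receptors for collagen or laminin that are not integrins, such as dystroglycan and the discoidin receptors, 3 were higher and 3 lower in iEZR_CA ESCs (26.4 and 28.1% of all genes), 6 and 2 at T24 (30.8 and 30.1%), and 4 and 4 at T48 (31.0 and 30.1%).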

How the data were processed

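The authors trimmed polyadenylated RNA-seq reads with Trim Galore 0.6.5, aligned them to the mouse genome (GRCm38/mm10) with GSNAP and made the deposited count table, whole reads per Ensembl gene, with HTSeq. The strand setting of the counting is not given in the sources used here, so reads of overlapping or antisense genes may not be told apart. Gene symbols, positions and exon lengths came from a GRCm38 annotation that held 53706 of the 53801 gene IDs. The 5 summary lines for reads outside genes, 21.3 to 24.3% of a library, and the 92 spike-in lines, 0.575 to 0.884%, were left out of library sizes and tests.

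The 18 libraries were grouped by the labelled cell line and exit time. edgeR 4.0.16 (R 4.3.3) was run with TMM scaling (factors 0.9755 to 1.03), filterByExpr, 1 term per group and the robust quasi-likelihood test with Benjamini-Hochberg adjustment over 18469 genes, with contrasts for line, time and their interaction. The script was tested on simulated data. CPM are TMM-scaled, except that the limit of 1 CPM used unscaled totals on genes. CPM per kb divides by the union of exons. Replicate pairs differed beyond sampling noise (chi-square per degree of freedom 1.55 to 3.33), so no library was counted as a repeat of another. These values cannot tell separate cultures from separate libraries of 1 culture. The spread between libraries of a group, edgeR's common coefficient of variation, was 2.98%. No fold is given where a group had 3 counts or fewer in every library, and a call is a test result only.

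Alternatives were DESeq2 1.42.0 size factors and Wald test, spike-in scaling, no filter, a fit of the compared groups only, subtraction of the chromosome median, and each library left out. Genes given for every library were 6 marker chains, Lama5, and in each comparison the 3 called genes with the largest positive and the 3 with the largest negative fold change at a mean normalised count of at least 50. Lama5 and the genes picked from the pathway lists were added after their values were seen. The members and lists were chosen with earlier results of these data known. Of the 55 genes, 1 is counted in the totals and in no other result, since it is not reported here.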

Additional observations from a re-analysis of the deposited data

Results flagged for a closer look

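The change from ESC differed between the lines by over 2-fold, by the interaction term of edgeR's quasi-likelihood test at a Benjamini-Hochberg adjusted p under 0.05, in 33 reported results for 27 genes, 12 at T24 and 21 at T48. Each value is the log2 change in iEZR_CA minus that in WT, and the highest adjusted p among them was 0.0232. Over all tested genes, 8.50% at T24 and 13.3% at T48 met the same threshold. Left out of the 33 were the gene not reported and genes at 3 counts or fewer in every library of a group. The shares of all genes have no such exclusion. With 3 libraries in a group, single libraries were not examined for outlying values.

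At T24 the laminins were absent from this set. The collagen differences were 2.35 for Col9a2, 1.99 for Col11a1, 1.53 for Col20a1, 1.24 for Col1a1, 1.20 for Col4a1, 1.02 for Col27a1 and -1.56 for Col6a5. For the integrins they were 1.99 for Itga9, 1.89 for Itgb3, 1.29 for Itga8, 1.01 for Itgb4 and -1.03 for Itga1. Itgb3 and Col9a2 began from a lower level in iEZR_CA ESCs, and the iEZR_CA change of Col9a2 by T24 was not called (log2 -0.0115, adjusted p = 0.929). The Col1a1 and Itga8 calls were lost with some libraries left out and with spike-in scaling (adjusted p = 0.0913 and 0.0509).

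At T48 the laminin differences were -1.13 for Lama5, -2.37 for Lama1 and -2.59 for Lama4, the 3 α chains with the more negative change in iEZR_CA. The integrin values were 3.56 for Itga9, 2.38 for Itgb7, 1.93 for Itgb3, 1.23 for Itga8, 1.15 for Itgal, 1.03 for Itga5, 1.02 for Itgav, -1.01 for Itga1 and -1.89 for Itga4. For collagens they were 3.12 for Col9a2, 1.14 for Col13a1, 1.06 for Col2a1, -1.14 for Col5a3, -1.17 for Col5a2, -1.28 for Col16a1, -1.29 for Col1a1, -1.97 for Col17a1 and -2.13 for Col26a1. The Col16a1 call was lost in DESeq2 (adjusted p = 0.0802) and without 1 of 3 libraries, WT ESC replicate 3, WT T48 replicate 1 or iEZR_CA T48 replicate 1 (adjusted p = 0.0833, 0.0821 and 0.052), and that of Itga8 without iEZR_CA ESC replicate 2 (adjusted p = 0.0584).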

How the results depend on the processing

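Of 495 gene results (55 genes in 9 comparisons), 347 were called. The call was the same for 494 with DESeq2 size factors, 464 in the DESeq2 Wald test and 480 without the filter, where 1, 30 and 15 called results were no longer called. Leaving out 1 library at a time, 3470 results were the same, 116 lost and 44 gained a call, and no count of genes called in a comparison moved by over 1.5 times (36 became 33 to 36 for the lines in ESCs and 28 became 24 to 28 for the interaction at T24). Scaling to the spike-ins changed most. It lost 55 calls, gained 3, and raised the median change of all genes by 0.14 and 0.26 (log2) in WT at T24 and T48 and by 0.15 and 0.25 in iEZR_CA. The spike-in share was 0.8741, 0.5748 and 0.6425% in the iEZR_CA T48 libraries and 0.7008, 0.7458 and 0.6829% in those of WT T48. Libraries scaled to the spike-ins take on that spread, so a lost call need not mean a smaller difference. With spike-in scaling 7 genes in place of 13 fell in iEZR_CA by T24 (11.1 in place of 28.9% of all genes). The interaction at T24 called 14 in place of 28, with 11 in place of 23 more positive and 3 in place of 5 more negative. Of all genes, 8.97 and 4.12% were so called in place of 21.5 and 16.9%. The change of Itgb5 in iEZR_CA by T24 reversed, from -0.11 to 0.0448 (adjusted p = 0.835). Subtracting the chromosome median moved 27 results and reversed 0. Limiting the fit to the groups compared left 457 calls the same, lost 5 and gained 4. The remaining results had no value there, as their genes did not pass the filter on low counts in that fit. The causes were not tested.

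Low counts limit the weaker genes. The ESC line difference of Itgam was lost without WT ESC replicate 3 (adjusted p = 0.137) or iEZR_CA ESC replicate 2 (adjusted p = 0.082), and its T48 line difference in 5 of 6 such runs. Those of Col6a5 in ESCs and of Lama3, Itga10 and Col6a2 at T24 were also lost without 1 library or another. No paired analysis was possible because the labels give no replicate numbers shared between groups.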
